A study of Mus musculus with 6 samples.

Results

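The mRNAs of 10 fatty acid desaturases and elongases were followed in cultured myoblasts of mdx mice that received PSB-KD107 or vehicle. The genes were taken by symbol from the Scd, Fads and Elovl families and are 10 of the 47069 genes in the count table. They comprise the desaturases Scd1, Scd2, Fads1, Fads2 and Fads3 and the elongases Elovl1, Elovl4, Elovl5, Elovl6 and Elovl7. Mice of the mdx strain lack dystrophin and model Duchenne muscular dystrophy. Both groups consisted of muscle stem cells, labelled satellite cells, from mdx mice. The study describes its mdx mice as male animals of 10 weeks on a C57BL/10 background, where it describes the injected animals. It does not give the age and sex of the cell donors separately. The cells had been sorted without Sca-1, CD45, CD31 and CD11b and with the integrins Itgb1 and Itga7, and were grown as myoblasts in serum with FGF2. One group received 10 μM PSB-KD107, a synthetic agonist of the receptor Gpr18, and the other received vehicle, which was DMSO in aqueous buffer. The sample records give a treatment of 2 days, whereas the methods of the study describe a shorter, overnight treatment. There were 3 libraries per group, numbered 1, 2 and 4 in the table, and the myoblasts came from 3 different mice. Libraries of both groups may therefore share a mouse, but the labels do not tie libraries to mice.

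Desaturases place a double bond into a fatty acid bound to coenzyme A, and elongases add a carbon unit to its chain. Both work in the membrane of the endoplasmic reticulum. The Scd enzymes make monounsaturated fatty acids such as oleate from saturated ones. Fads1 and Fads2 act in turn on the essential dietary fatty acids and, together with Elovl5, make arachidonic acid and the omega-3 fatty acids found in membranes. Elovl6 lengthens palmitate to stearate, the substrate of the Scd enzymes, whereas Elovl1, Elovl4 and Elovl7 lengthen longer chains. Myoblasts use these products for membranes, and several of the genes are textbook targets of the lipid-sensing SREBP transcription factors.

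The total number of counts ranged from 32663562 to 39242439 in the vehicle libraries and from 30917613 to 48756794 in the PSB-KD107 libraries, and 3 counts, used as the floor of detection, corresponded to between 0.0596 and 0.0962 CPM. CPM are counts scaled to a common library total after scaling of the libraries with TMM factors, and this floor covers counting error only. The summed level of 7 myoblast markers (Pax7, Myf5, Myod1, Myog, Des, Cdh15 and Itga7) was between 7878 and 8529 CPM in vehicle and between 6942 and 7682 CPM in PSB-KD107 libraries. Myoblast markers were thus present in every library, while the sums of the groups did not overlap. Des (2784 to 3932 CPM) and Myog were the largest parts of the sum, and Pax7 had 26.8 to 68.8 CPM. The sum therefore does not show whether the satellite cell label was met. Of the 7 markers 2 were lower at an unadjusted p-value under 0.05, against 2.93% of all genes. For both, all PSB-KD107 libraries lay below all vehicle libraries, against 933 of the 14165 genes tested. Pax7, the transcription factor of satellite cells, had a log2 fold change of -0.90 (SE 0.17, edgeR adjusted p = 0.209, DESeq2 adjusted p = 0.0019, and 0.0557 without vehicle library 4). Myog, a factor of myoblast differentiation, had 2042, 2203 and 2158 CPM in the vehicle libraries and 1175, 1726 and 1661 CPM in the PSB-KD107 libraries (log2 fold change -0.49, SE 0.18, edgeR adjusted p = 0.469, DESeq2 adjusted p = 0.214). The other 5 did not pass, with log2 fold changes of -0.59 for Myod1, -0.42 for Cdh15, -0.11 for Itga7, 0.15 for Des and 0.73 for Myf5. Of 6 adipocyte markers, 5 had at most 3 counts in every library, Plin1 was at 0 in all of them, and their sum reached 0.199 CPM at most. The markers of fibroblasts or fibroadipogenic cells summed to between 1.86 and 5.05 CPM in vehicle and between 2.25 and 10.7 CPM in PSB-KD107 libraries. The sums lay between 0.310 and 1.40 and between 0.385 and 1.13 CPM for endothelial, between 2.3 and 4.82 and between 0.660 and 6.56 CPM for immune, and between 1.45 and 4.09 and between 1.21 and 3.43 CPM for Schwann cell markers. The part of these cells in the results below was not tested. In bulk RNA, a lower share of one kind of cell and less RNA per cell cannot be told apart.

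Levels were compared between genes in FPKM, that is CPM divided by the exon length of the gene in kilobases. On this scale Scd2 and Fads3 were the most abundant members in vehicle-treated myoblasts. Scd2 had a mean of 137.2 FPKM (from 69.9 to 263.7) and Fads3 one of 116.7 FPKM (from 104.1 to 123.4), and their ranges overlapped. Elovl1 followed at 25.6 FPKM and Elovl5 at 8.06 FPKM. Fads1, Fads2 and Scd1 lay close together, with means of 4.65, 4.45 and 4.28 FPKM, and Elovl6 had 2.56 FPKM. From Elovl5 down to Elovl6, each gene overlapped with the next in this order, whereas Fads3, Elovl1 and Elovl5 were separated from each other. Elovl4, which makes the very longest chains in retina, skin and brain, had 0.755 FPKM, and Elovl7 was at 0.0021 FPKM. With PSB-KD107, Scd2 had a mean of 364.7 FPKM and no longer overlapped with Fads3, at 106.5 FPKM. Scd1, at 22.6 FPKM, then stood next below Elovl1, at 29.3 FPKM, and overlapped with it. It was followed by Fads2 (15.7 FPKM), Fads1 (14.1 FPKM), Elovl5 (12.8 FPKM), Elovl6 (7.38 FPKM), Elovl4 (1.37 FPKM) and Elovl7 (0.101 FPKM), where each of Fads2, Fads1, Elovl5 and Elovl6 overlapped with its neighbour.

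Of the 10 members, 9 had enough counts to be tested, and Elovl7 did not. In PSB-KD107-treated myoblasts 8 of the 9 were higher on average, with a median log2 fold change of 1.41, against -0.00074 over the 14165 genes tested. After adjustment over all genes, edgeR's quasi-likelihood test called 0 members, as it called 0% of all genes. At an unadjusted p-value under 0.05, Scd1, Scd2, Fads1, Elovl5 and Elovl6 were higher, that is 5 of 9, against 6.47% of all genes. None of the 9 was lower, against 2.93% of all genes. Of these 9, DESeq2 gave Fads2 no p-value. Among the others it called Scd1 and Fads1 higher at an adjusted p-value under 0.05, against 2.10% of the genes it tested. It called 0 of them lower, against 0.667%. Elovl7 was also called higher by DESeq2 and is not counted here, since its counts come almost wholly from the PSB-KD107 libraries. The PSB-KD107 libraries all lay above the vehicle libraries for 5 of the 9 (Scd1, Scd2, Fads1, Fads2 and Elovl5), against 9.20% of all genes. For any one gene, the exact permutation test (two-sided) on 3 against 3 libraries reaches 0.1 at the lowest. Without vehicle library 1, 7 members passed the unadjusted threshold in edgeR and the median was 2.25. Without PSB-KD107 library 1 there were 2. Without vehicle library 2 or PSB-KD107 library 2 there were 3 with Elovl7 counted. In these refits Elovl7 passed the filter on low counts.

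**Figure D1:**
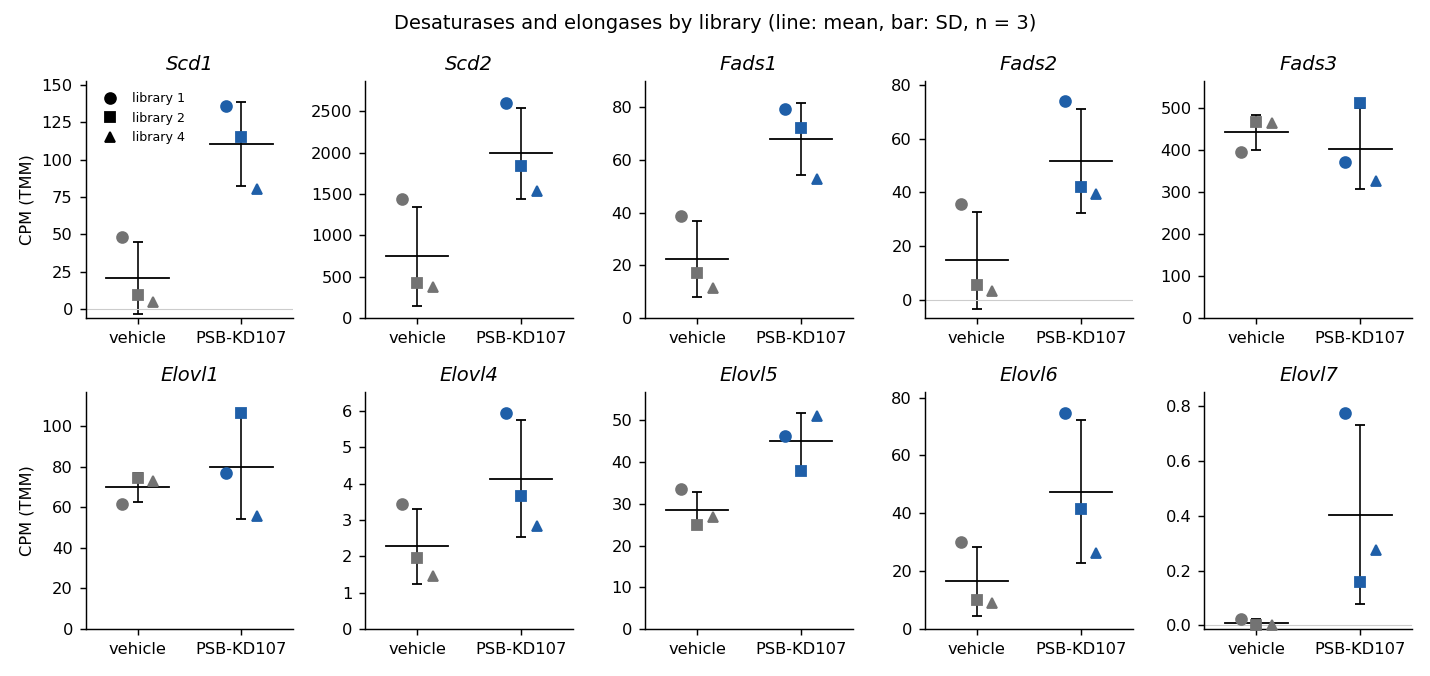
Level of each member in CPM (vertical axis, scaled for each gene) in the 3 vehicle (grey) and 3 PSB-KD107 (blue) libraries, with the mean as a line and the SD as a bar. Circles, squares and triangles are the libraries numbered 1, 2 and 4, and vehicle library 1 is the highest vehicle library for Scd1, Scd2, Fads1, Fads2, Elovl4, Elovl5 and Elovl6, and the lowest for Fads3 and Elovl1.

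The stearoyl-CoA desaturases Scd1 and Scd2 lie in one cluster on chromosome 19 (Scd1 at chr19:44394455-44407879 on the minus strand and Scd2 at chr19:44293674-44306864 on the plus strand, GRCm38). Scd1, the main form of liver and fat, had 48.4, 9.57 and 4.81 CPM in vehicle libraries 1, 2 and 4, and 135.8, 115.2 and 80.1 CPM in PSB-KD107 libraries 1, 2 and 4. Every PSB-KD107 library was above every vehicle library, and vehicle library 1 stood well above the other two. The mean went from 20.9 ± 23.9 to 110.4 ± 28.2 CPM (SD, n = 3), a ratio of 5.27 between the means. The log2 fold change was 2.40 (SE 0.85, 95% interval 0.32 to 4.47, edgeR adjusted p = 0.467, DESeq2 adjusted p = 0.0403). The DESeq2 call did not hold without vehicle library 2 (adjusted p = 0.417), vehicle library 4 (0.184), PSB-KD107 library 1 (0.531), PSB-KD107 library 2 (0.308) or PSB-KD107 library 4 (0.278). Without vehicle library 1 the log2 fold change was 3.93 and the adjusted p-value 2.65e-20 in DESeq2, and 0 members were called by edgeR.

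Scd2, the form described mainly in brain and during development, had 1441, 425.6 and 381.9 CPM in the vehicle libraries and 2605, 1837 and 1536 CPM in the PSB-KD107 libraries. The groups did not overlap, although vehicle library 1 came close to the lowest PSB-KD107 library. The mean went from 750 ± 599 to 1993 ± 551 CPM (SD, n = 3), with a log2 fold change of 1.41 (SE 0.56, 95% interval 0.04 to 2.78). Its adjusted p-value was 0.520 by edgeR and 0.166 by DESeq2, and among its refits with a single library left out DESeq2 called it only without vehicle library 1 (adjusted p = 5.25e-13), where the log2 fold change was 2.29. The counts of the short gene Mir5114, which lies within Scd2, cannot be told apart from those of Scd2, since the counting program was not given in the sources used here.

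The share of Scd1 in the counts of both Scd genes was compared within each library, which does not depend on the scaling between libraries. It was 3.25% (95% Wilson interval 3.11 to 3.40), 2.20% (1.98 to 2.44) and 1.24% (1.06 to 1.45) in vehicle libraries 1, 2 and 4. In PSB-KD107 libraries 1, 2 and 4 it was 4.96% (4.84 to 5.07), 5.90% (5.72 to 6.09) and 4.95% (4.78 to 5.13). All 3 PSB-KD107 libraries were above all vehicle libraries, and the spread was smaller with PSB-KD107. These intervals cover counting error only. The log2 ratio of Scd1 to Scd2 per exon length was higher by 1.39 (SE 0.42) with PSB-KD107 (two-sided exact permutation test, p = 0.1, and 0.3 when adjusted over the 6 ratios compared). Scd2 remained the more abundant of the pair in every library.

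The 3 Fads genes form a cluster on chromosome 19, with Fads3 at chr19:10041569-10060110 and Fads1 at chr19:10182888-10196877 on the plus strand and Fads2 at chr19:10062765-10101746 on the minus strand between them. Despite lying side by side, they did not share one pattern of levels. Fads1, the enzyme that makes arachidonic and eicosapentaenoic acid, had 38.6, 17.0 and 11.5 CPM in the vehicle libraries and 79.4, 72.0 and 52.8 CPM in the PSB-KD107 libraries. The groups did not overlap. Fads1 holds the short gene Mir6993, with the same limit on its counts as for Scd2. The mean went from 22.4 ± 14.3 to 68.0 ± 13.7 CPM (SD, n = 3), a log2 fold change of 1.60 (SE 0.46, 95% interval 0.48 to 2.72, edgeR adjusted p = 0.378, DESeq2 adjusted p = 0.0222). The DESeq2 call held without vehicle library 1 (adjusted p = 1.63e-11) and PSB-KD107 library 4 (0.0235). It was lost without vehicle library 2 (0.314), vehicle library 4 (0.155), PSB-KD107 library 1 (0.185) or PSB-KD107 library 2 (0.0760).

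Fads2, which carries out the first desaturation of the essential fatty acids, had 35.5, 5.38 and 3.04 CPM in the vehicle libraries and 74.0, 42.0 and 39.2 CPM in the PSB-KD107 libraries. The groups did not overlap, but vehicle library 1 was close to PSB-KD107 libraries 2 and 4. The mean went from 14.7 ± 18.1 to 51.7 ± 19.4 CPM (SD, n = 3). The log2 fold change was 1.82 with an interval that included 0 (SE 0.93, 95% interval -0.43 to 4.07, edgeR adjusted p = 0.618). DESeq2 gave it no p-value under its rule on outlying counts, and one of 0.292 after adjustment when that rule was switched off. Without vehicle library 1 the log2 fold change was 3.61 in both tools, with an adjusted p-value of 0.233 in edgeR and 1.38e-14 in DESeq2. With any other library left out, the adjusted p-value in DESeq2 was between 0.496 and 0.997.

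Fads3, known for placing a double bond into sphingoid bases, had 394.8, 467.9 and 465.2 CPM in the vehicle libraries and 371.8, 512.9 and 326.4 CPM in the PSB-KD107 libraries. The groups overlapped, and both the highest and the lowest library belonged to PSB-KD107. The log2 fold change was -0.13 (SE 0.19, 95% interval -0.59 to 0.33, edgeR adjusted p = 0.854). Without PSB-KD107 library 2 it was -0.35, and without PSB-KD107 library 4 it was -0.0015. The counts of Fads1 as a share of those of Fads1 and Fads3 together were 8.91%, 3.51% and 2.41% in the vehicle libraries and 17.6%, 12.3% and 13.9% in the PSB-KD107 libraries, without overlap. The log2 ratio per exon length was higher by 1.93 (SE 0.62) with PSB-KD107 (two-sided exact permutation test, p = 0.1, adjusted p = 0.3 over the 6 ratios). For Fads2 to Fads3 the difference was 2.73 (SE 1.21) and the groups overlapped, since vehicle library 1 was above PSB-KD107 library 2 (exact permutation p = 0.2, adjusted p = 0.3). For Fads2 to Fads1 it was 0.80 (SE 0.59), also with overlap (exact permutation p = 0.3, adjusted p = 0.3).

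**Figure D2:**
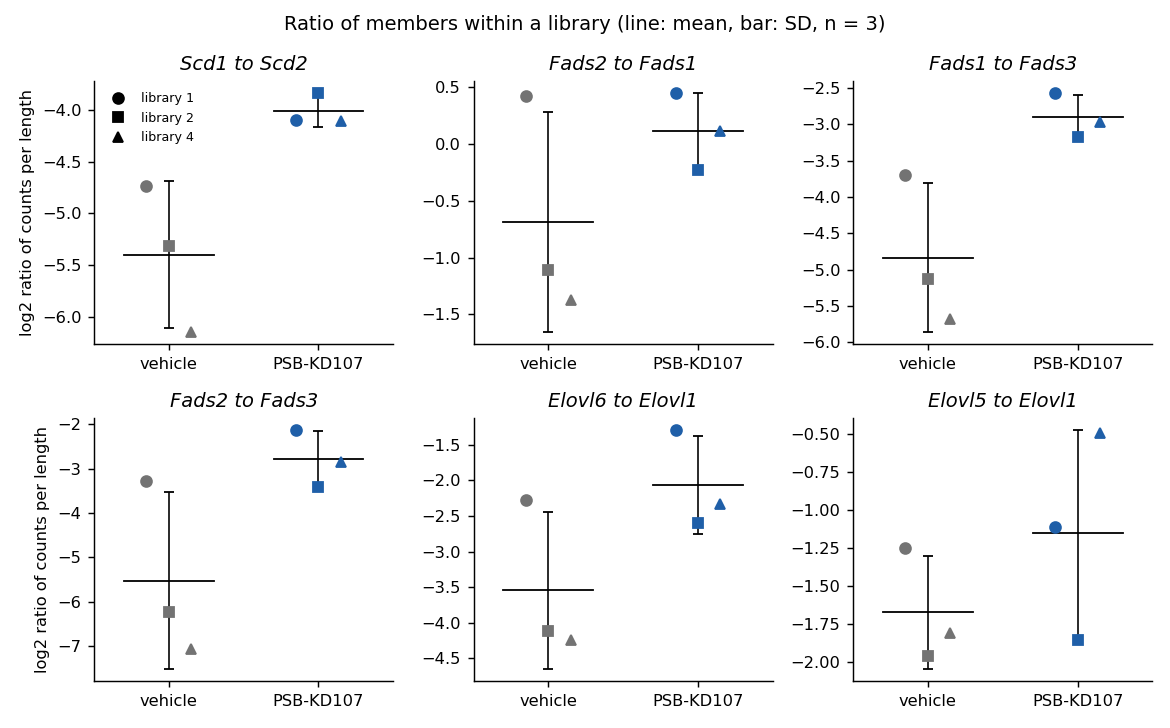
Log2 ratio of the counts of one member to those of another, each divided by its exon length (vertical axis), in the 3 vehicle and 3 PSB-KD107 libraries, with the mean as a line and the SD as a bar. The groups are separate for Scd1 to Scd2 and for Fads1 to Fads3 and overlap for the other 4 ratios.

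Among the elongases, Elovl5 and Elovl6 were higher with PSB-KD107 at an unadjusted p-value under 0.05. Elovl5, the elongase of the polyunsaturated route (chr9:77917364-77984519, plus strand), had 33.5, 24.8 and 26.9 CPM in the vehicle libraries and 46.2, 37.9 and 51.1 CPM in the PSB-KD107 libraries. It had the narrowest spread among the members with an unadjusted p-value under 0.05, and the groups did not overlap. The mean went from 28.4 ± 4.54 to 45.1 ± 6.65 CPM (SD, n = 3), with a log2 fold change of 0.67 (SE 0.17, 95% interval 0.25 to 1.08). The adjusted p-value was 0.319 by edgeR and 0.0678 by DESeq2. DESeq2 called it without vehicle library 1 (adjusted p = 0.00738) or without PSB-KD107 library 2 (adjusted p = 0.0123).

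Elovl6, which takes palmitate to stearate (chr3:129532355-129638495, plus strand), had 30.1, 10.2 and 9.06 CPM in the vehicle libraries and 74.6, 41.6 and 26.1 CPM in the PSB-KD107 libraries. The groups overlapped, because vehicle library 1 was above PSB-KD107 library 4. The mean went from 16.4 ± 11.8 to 47.4 ± 24.7 CPM (SD, n = 3), and the log2 fold change was 1.53 (SE 0.60, 95% interval 0.07 to 2.98, edgeR adjusted p = 0.514, DESeq2 adjusted p = 0.148). Among its refits with a single library left out, DESeq2 called it only without vehicle library 1 (adjusted p = 0.000137), where the log2 fold change was 2.29. Elovl6 overlaps the genes Gm35986, on the other strand, and Gm43072, and counts of these cannot be told apart from its own without the strand setting of the count.

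Elovl1, which makes long saturated chains for sphingolipids (chr4:118428093-118432953, plus strand), had 61.7, 74.7 and 73.0 CPM in the vehicle libraries and 77.2, 106.4 and 55.7 CPM in the PSB-KD107 libraries. The vehicle values lay within the range of the PSB-KD107 values. Its log2 fold change was 0.19 (SE 0.24, 95% interval -0.39 to 0.77, edgeR adjusted p = 0.836), and it was -0.08 without PSB-KD107 library 2. The cell cycle gene Cdc20 overlaps Elovl1 on the other strand. Relative to Elovl1, the log2 ratio per exon length was higher with PSB-KD107 by 1.48 (SE 0.75) for Elovl6 and by 0.52 (SE 0.45) for Elovl5, both with overlap and an exact permutation p of 0.3 (adjusted p = 0.3).

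Elovl4 (chr9:83778692-83806277, minus strand) had 3.44, 1.95 and 1.46 CPM in the vehicle libraries and 5.94, 3.66 and 2.83 CPM in the PSB-KD107 libraries. Vehicle library 1 was above PSB-KD107 library 4, and the log2 fold change of 0.86 had an interval that included 0 (SE 0.44, 95% interval -0.21 to 1.93, edgeR adjusted p = 0.620, DESeq2 adjusted p = 0.531). It was 1.28 without vehicle library 1 and 0.49 without PSB-KD107 library 1.

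Elovl7 (chr13:108214404-108285683, plus strand), which lengthens saturated chains, was the one member close to the limit of detection. It had 1, 0 and 0 counts in vehicle libraries 1, 2 and 4 and 39, 5 and 10 counts in PSB-KD107 libraries 1, 2 and 4. All PSB-KD107 libraries were above the floor of 3 counts and no vehicle library was. After scaling for library size, the ratio of the 54 counts to the 1 count was 48.7 (95% exact counting interval 8.38 to 1960), which does not cover the spread between libraries. With all libraries, Elovl7 did not pass the filter on low counts in edgeR. DESeq2, which sets its own limit on the mean count, gave it an adjusted p-value of 0.0368, and of 0.278 without vehicle library 2 and 0.0259 without PSB-KD107 library 2. Without vehicle library 1, vehicle library 4, PSB-KD107 library 1 or PSB-KD107 library 4, DESeq2 gave no adjusted p-value for it. As the gene can pass such a limit only through its PSB-KD107 counts, the values per library describe it better than these p-values.

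**Figure D3:**
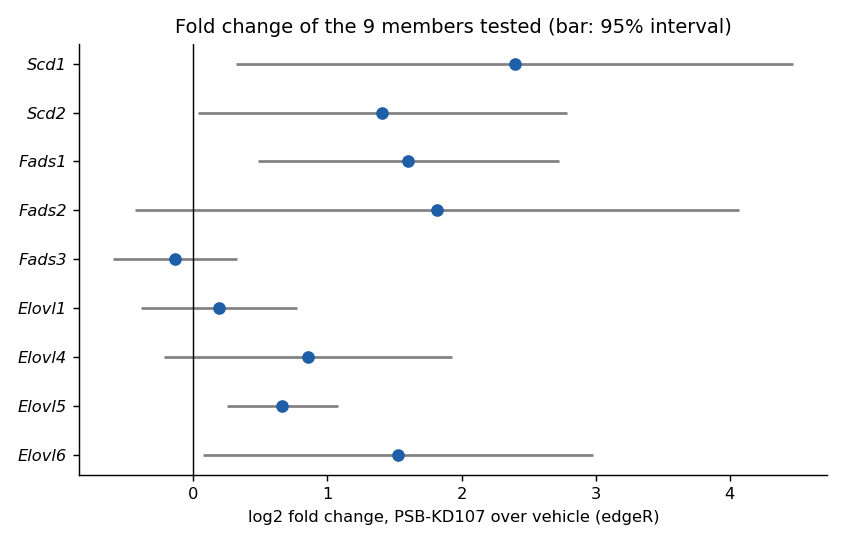
Log2 fold change of PSB-KD107 over vehicle in edgeR (horizontal axis) for the 9 members tested, with the 95% interval as a bar. The intervals of Scd1, Scd2, Fads1, Elovl5 and Elovl6 lie above 0 and those of Fads2, Fads3, Elovl1 and Elovl4 include it.

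The members differed widely in the spread between the vehicle libraries. The highest vehicle library had 11.7 times the CPM of the lowest for Fads2 and 10.1 times for Scd1, with a median of 1.32 over all genes tested, and 1.64% and 2.05% of genes had a larger spread than these. For Scd2, Fads1 and Elovl6 the spread was 3.77, 3.37 and 3.32 times, and for Elovl4 it was 2.36 times. Elovl5, Elovl1 and Fads3 spread by 1.35, 1.21 and 1.19 times, and 47.1%, 64.8% and 69% of genes had a larger spread than these. Vehicle library 1 was the highest vehicle library in 7 of the 9 members, against 44.2% of all genes. It was at least 2-fold above both other vehicle libraries in 5 of the 9, against 7.74% of all genes. Relative to the mean of the other vehicle libraries, it was 8.44 times as high for Fads2, 6.74 for Scd1, 3.57 for Scd2, 3.13 for Elovl6, 2.71 for Fads1, 2.02 for Elovl4 and 1.30 for Elovl5. For Fads3 and Elovl1 the values were 0.846 and 0.836. Within PSB-KD107, the spread was between 1.35 times for Elovl5 and 2.85 times for Elovl6, with a median of 1.46 over all genes. PSB-KD107 library 1 was the highest PSB-KD107 library in 6 of the 9 members, against 30.1% of all genes. What sets vehicle library 1 apart was not tested.

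**Figure D4:**
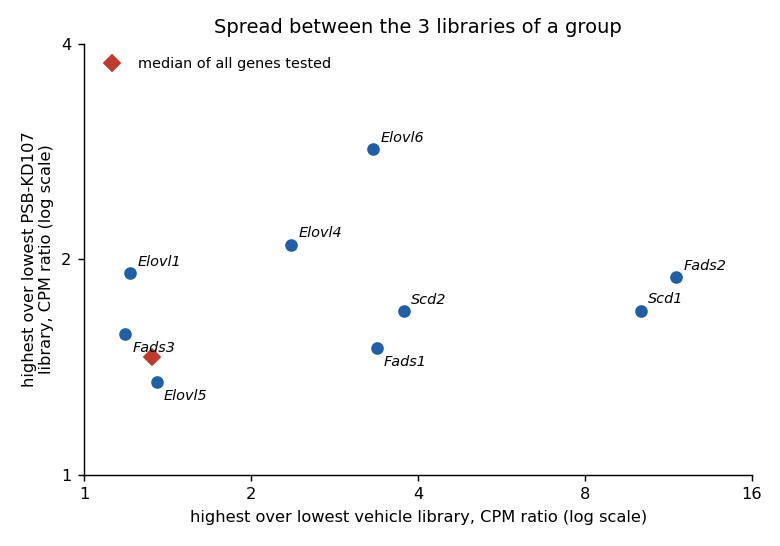
Ratio of the highest to the lowest library in CPM within vehicle (horizontal axis, log scale) and within PSB-KD107 (vertical axis, log scale) for the 9 members tested, with the median of all genes tested as a red diamond. Fads2 and Scd1 lie at 11.7 and 10.1 times in vehicle but at 1.89 and 1.70 times in PSB-KD107.

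The levels of Scd1, Scd2, Fads1, Fads2, Elovl4, Elovl5 and Elovl6 were also correlated with each other over the 6 libraries. These 7 were chosen as the members with a log2 fold change above 0.5, so that a shared difference between the groups is built into the values. The Pearson correlation of their log2 CPM lay between 0.73 and 1.00 for the 21 pairs, with a median of 0.95. With Fads3 and Elovl1 these 7 genes had correlations between -0.71 and 0.21, whereas Fads3 and Elovl1 had one of 0.79 with each other. The points are 6 libraries that include both treatments and vehicle library 1, and all genes of a library share its depth, so the values describe these libraries only. The genes outside the family most like Scd1 were Aldoc (r = 0.995), Nsun4 (0.992) and Id4 (0.992), and those most like Fads2 were Tpmt (0.995), Commd10 (0.992) and Id4 (0.992), each over 6 libraries. They were picked as the highest correlations among the 14165 genes tested, so values near 1 are built into the choice. Aldoc, a glycolytic enzyme, had 3.19, 1.23 and 0.620 CPM in the vehicle libraries and 7.59, 7.38 and 5.83 CPM in the PSB-KD107 libraries. Its log2 fold change was 2.04 (SE 0.60), against 0.18 (SE 0.10) for Nsun4, 0.49 (SE 0.29) for Id4, 0.55 (SE 0.26) for Tpmt and 0.27 (SE 0.16) for Commd10.

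Promoter sequences were read for 7 of the 10 members from RefSeq (GRCm38.p6), as the 250 bases before the start of transcription. Elovl1 had 2 windows, and Scd1, Scd2 and Fads1 had no entry. The windows of Fads3 and Elovl1, whose groups overlapped and whose log2 fold changes were -0.13 and 0.19, are set beside those of Elovl5 and Elovl6, which were higher at an unadjusted p-value under 0.05. They are shown so that the letters before elongases and a desaturase of unlike fold change can be read side by side, although neither Elovl5 nor Elovl6 passed the adjusted threshold. Each is written 5′ to 3′ on the strand of its gene, and the capitals mark matches on either strand to a CCAAT box (CCAAT), a GC box (GGGCGG) or an E-box (CACGTG). The runs of Elovl5 and Elovl6 stop before the first base that GENCODE M21 places inside the gene. The coordinates are chr19:10041298-10041547 for Fads3, chr4:118427843-118428092 for Elovl1, chr9:77917115-77917363 for Elovl5 and chr3:129532136-129532354 for Elovl6, all on the plus strand.
Fads3: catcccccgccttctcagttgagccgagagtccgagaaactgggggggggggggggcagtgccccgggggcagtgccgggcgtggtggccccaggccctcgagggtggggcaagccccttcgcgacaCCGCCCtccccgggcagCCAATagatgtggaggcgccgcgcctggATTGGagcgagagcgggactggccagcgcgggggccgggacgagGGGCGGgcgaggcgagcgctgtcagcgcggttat
Elovl1: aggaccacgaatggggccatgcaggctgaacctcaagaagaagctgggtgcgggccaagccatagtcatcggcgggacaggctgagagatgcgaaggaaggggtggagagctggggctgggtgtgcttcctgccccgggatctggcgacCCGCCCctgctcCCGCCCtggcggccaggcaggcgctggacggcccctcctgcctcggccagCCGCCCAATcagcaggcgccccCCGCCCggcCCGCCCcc
Elovl5: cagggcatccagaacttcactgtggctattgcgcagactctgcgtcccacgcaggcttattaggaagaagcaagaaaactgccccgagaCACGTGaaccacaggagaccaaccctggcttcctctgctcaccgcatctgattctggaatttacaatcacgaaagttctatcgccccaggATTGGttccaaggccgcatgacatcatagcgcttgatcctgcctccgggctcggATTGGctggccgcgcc
Elovl6: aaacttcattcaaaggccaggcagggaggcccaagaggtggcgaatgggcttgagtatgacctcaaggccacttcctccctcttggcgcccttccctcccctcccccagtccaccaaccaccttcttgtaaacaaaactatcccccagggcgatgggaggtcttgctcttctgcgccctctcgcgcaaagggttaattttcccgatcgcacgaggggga

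Fads3 held 2 CCAAT boxes and 2 GC boxes, and the first window of Elovl1 held 1 CCAAT box and 5 GC boxes, one of which shares bases with the CCAAT box. The second window of Elovl1 held 2 GC boxes. Elovl5 held 2 CCAAT boxes and the single E-box found among the members, and Elovl6 held none of the motifs. Fads2, most of whose window lies within the gene as annotated by GENCODE, held 1 GC box, Elovl4 held 2 and Elovl7 held 3. Over 27025 promoters of the same length, 34.5% held a CCAAT box, 32.9% a GC box and 6.05% an E-box. The letters TCACNCCAC, a core of the sterol regulatory element, were searched on both strands. They were found in 1.04% of promoters and in 0 of the 8 windows of the members. With so low a share, 0 in 8 windows cannot tell the members from other promoters. Scd1, Scd2 and Fads1 were not searched, and the second window of Elovl1 lay within the gene. All matches are descriptions of the letters and not of binding.

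The genes that work with the members were described in the same way. In the elongation cycle, the elongases perform the first step and are followed by a reductase (Hsd17b12), dehydratases (the Hacd genes) and a second reductase (Tecr). Of these 6 partners, 1 was higher and 0 were lower by the unadjusted threshold of 0.05, against 6.47% and 2.93% of all genes. Their median log2 fold change was -0.06. Hsd17b12 had 78.1, 68.2 and 67.5 CPM in the vehicle libraries and 151.4, 126.6 and 95.5 CPM in the PSB-KD107 libraries, without overlap (log2 fold change 0.80, SE 0.18, edgeR adjusted p = 0.255, DESeq2 adjusted p = 0.0175). The DESeq2 call of Hsd17b12 was lost without vehicle library 2 (adjusted p = 0.255), vehicle library 4 (0.233), PSB-KD107 library 1 (0.0835) or PSB-KD107 library 2 (0.0611). Hacd3 had a log2 fold change of -0.20 (SE 0.21, adjusted p = 0.789). The desaturases receive electrons through cytochrome b5 and its reductases. Here 1 of 5 tested genes was higher and 0 lower, against the same 6.47% and 2.93% of all genes. Cyb5b, a form of cytochrome b5 on the outer mitochondrial membrane, had a log2 fold change of 0.47 (SE 0.15, edgeR adjusted p = 0.420), and Cyb5a, the form of the endoplasmic reticulum, had one of 0.28 (SE 0.41).

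Genes that supply fatty acids to the members form another list. Of 7 genes in or around the making of acetyl-CoA, malonyl-CoA and palmitate, 6 were higher and 0 lower by the unadjusted threshold, against 6.47% and 2.93% of all genes. The gene that did not pass was Me1 (log2 fold change 0.20, SE 0.28). DESeq2 called 5 higher, against 2.10% of the genes it tested. The median of their log2 fold changes was 1.20. With each library left out in turn, between 6 and 7 were higher, and the median lay between 1.00 and 1.44. Acss2, the cytosolic acetyl-CoA synthetase, had 42.1, 31.6 and 30.6 CPM in the vehicle libraries and 125.3, 96.8 and 68.4 CPM in the PSB-KD107 libraries, and DESeq2 called it with every library left out in turn. Acaca, an acetyl-CoA carboxylase, had a mean of 40.3 ± 8.57 CPM with vehicle and of 102.0 ± 30.7 CPM with PSB-KD107 (SD, n = 3), and its DESeq2 call was lost without vehicle library 2 (adjusted p = 0.0539). Fasn, the fatty acid synthase, which was chosen after its values were seen, had 257.1, 277.4 and 320.9 CPM in the vehicle libraries and 1005, 1010 and 429.5 CPM in the PSB-KD107 libraries. Its adjusted p-value in DESeq2 was 0.0021, and it was 0.0748 without vehicle library 2 and 0.0504 without PSB-KD107 library 1. Its vehicle libraries differed by 1.25 times, without the excess in vehicle library 1 seen for Scd1 and Fads2. Relative to the mean of the other vehicle libraries, vehicle library 1 was 0.859 times as high for Fasn. For the rest of the list it was 1.97 times as high for Mid1ip1, 1.41 for Acaca, 1.36 for Acss2, 1.33 for Acly, 1.09 for Acacb and 1.01 for Me1.

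Of 5 acyl-CoA synthetases, which activate fatty acids, Acsl3 and Acsl5 were higher at an unadjusted p-value under 0.05, against 6.47% of all genes. Their log2 fold changes were 0.65 (SE 0.12) and 0.82 (SE 0.20). Both were called by DESeq2 (adjusted p = 5.9e-04 and 0.0210), against 2.10% of the genes it tested. The call of Acsl5 was lost without vehicle library 2 (adjusted p = 0.175), vehicle library 4 (0.0889) or PSB-KD107 library 1 (0.160). Acsl1, Acsl4 and Acsl6 had log2 fold changes of -0.09, 0.33 and 0.99 and did not pass. Of 7 tested acyltransferases that place fatty acids into phospholipids, 1 was higher and 0 lower, against 6.47% and 2.93% of all genes. Their median was -0.15. Lpcat1 had a log2 fold change of 0.45 (SE 0.17, edgeR adjusted p = 0.502) and Mboat2 one of -0.36 (SE 0.25).

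Among the other genes of the 3 families, Fads6 had a log2 fold change of 0.78 (SE 0.31, edgeR adjusted p = 0.515) and no overlap between groups, with means of 1.67 ± 0.433 and 2.89 ± 0.514 CPM (SD, n = 3). Scd4, at 0.208 ± 0.155 and 0.470 ± 0.323 CPM (SD, n = 3), overlapped between groups. Elovl2 and Elovl3 were below the filter, and Scd3 was at 0 counts in all 6 libraries, which allows up to 3 counts in each. Of 10 tested regulators of lipid synthesis, 1 was higher and 0 lower by the unadjusted threshold, against 6.47% and 2.93% of all genes. Their median was 0.08. Insig1, which holds SREBP in the endoplasmic reticulum and is itself a target of it, had 181.8, 71.4 and 65.9 CPM in the vehicle libraries and 365.5, 274.7 and 170.6 CPM in the PSB-KD107 libraries. Here too vehicle library 1 was the highest vehicle library and overlapped with PSB-KD107 library 4 (log2 fold change 1.35, SE 0.48, edgeR adjusted p = 0.467, DESeq2 adjusted p = 0.112). Nr1h2, a receptor for oxysterols, had a log2 fold change of 0.11 (SE 0.10). The mRNAs of Srebf1 and Srebf2, which encode the SREBP factors and were chosen after their values were seen, had log2 fold changes of -0.06 (SE 0.13) and -0.04 (SE 0.15).

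With each library left out in turn, no gene passed the unadjusted threshold as higher in 4 of 6 refits among the electron carriers, in 5 of 6 among the acyltransferases, in 4 of 6 among the other family genes and in 4 of 6 among the regulators.

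**Figure D5:**
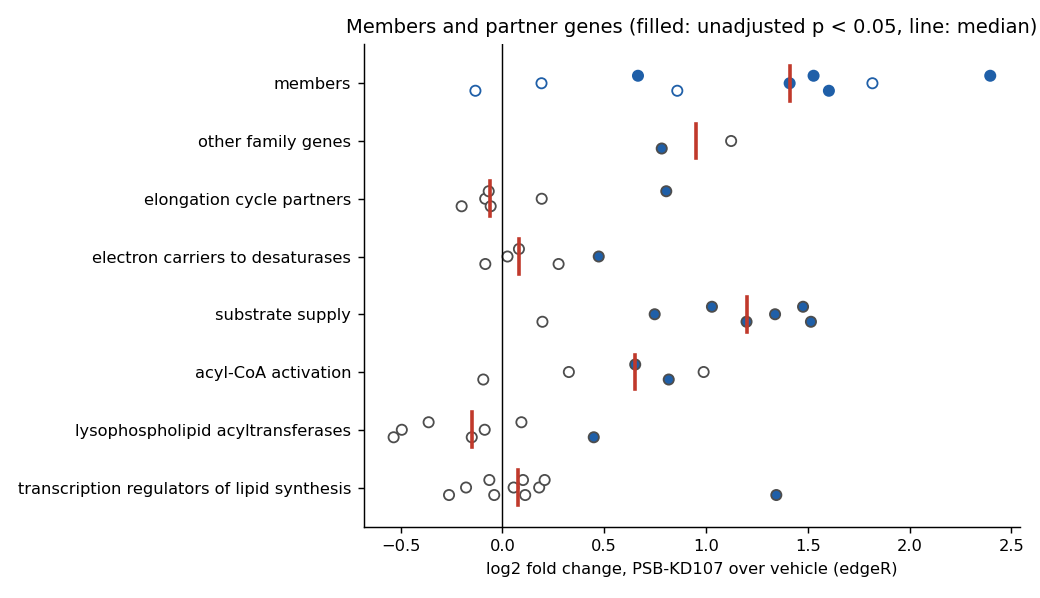
Log2 fold change of PSB-KD107 over vehicle in edgeR (horizontal axis) for each tested member and each tested gene of 7 partner lists, where filled circles have an unadjusted p-value under 0.05 and the red line is the median of a list. The medians of the members and of the genes of substrate supply are 1.41 and 1.20, and those of the elongation cycle partners, electron carriers, acyltransferases and regulators lie between -0.15 and 0.08.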

How the data were processed

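Paired-end libraries of polyadenylated RNA were sequenced. The authors aligned the reads to mm10 with STAR in GenPipes and deposited raw counts per gene. The counting program, its annotation and its use of strand were not given in the sources used here, although the library kit keeps strand. Groups were taken from the sample records and the column names. The table numbers its libraries 1, 2 and 4, and the records 1, 2 and 3, so libraries 4 were assigned to a group only. The p-values of the fits set the difference between groups against the spread between these libraries. They use no pairing except where a replicate block was fitted, so any differences between mice are part of that spread.

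Genes were named and placed with GENCODE M21. Counts were filtered with filterByExpr, scaled with TMM (factors 0.974 to 1.03) and tested by edgeR 4.0.16's quasi-likelihood test in R 4.3.3, with Benjamini-Hochberg adjustment over 14165 genes at 0.05. FPKM are CPM per kilobase of merged exons. Correlations used log2 CPM with an offset of 0.1. Two-sided exact permutation tests used scipy 1.17.1. The alternatives were DESeq2 1.42.0, limma-voom (limma 3.58.1), RLE factors, other filters, a replicate block and each library left out. The scripts were tested on simulated data. The members and lists were chosen with earlier results of these data known, and the 6 ratios after their values were seen. Genes named were all members, for each list of partner genes the 2 with the smallest p-values and all genes of lists of 5 or fewer, and the 3 genes most correlated with Scd1 and with Fads2. Cell type markers were read as sums, and single markers were named after their values were seen. So were Mid1ip1, Acacb, Acly and Me1. One list covered by this rule is not reported here.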

Additional observations from a re-analysis of the deposited data

How the results depend on the processing

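Of 198 refits of the log2 fold change of a tested member (22 alternatives), 174 kept their direction and their side of the threshold. These include Fads2 in DESeq2, which gave it no p-value. A further 20 passed the adjusted threshold that the values above did not, and 4 turned direction. The last were Fads3, at 0.022 with the replicate block on 4 libraries and 0.036 on these libraries without a block, and Elovl1, at -0.076 in edgeR and -0.077 in DESeq2 without PSB-KD107 library 2. Over all genes, 0 were called by edgeR, 8 without a filter on low counts, 407 by DESeq2, 431 by DESeq2 without its outlier rule, which was added after seeing the data, and 2456 when a replicate block was fitted to libraries 1 and 2. This block leaves 1 degree of freedom, and with it 8 members were higher at an unadjusted p-value under 0.05, against 1 on these 4 libraries without a block. The same 8 members (all tested ones but Fads3) passed the adjusted threshold with this block, with adjusted p-values between 0.00094 and 0.0237, and 0 did without it. With a block over all 6 libraries 0 genes were called, 7 members were higher and the median was 1.62. The numbers were not taken to pair the libraries, since the labels do not tie them to mice. The deviations of libraries with the same number correlated at 0.63, 0.50 and -0.13 for numbers 1, 2 and 4. Vehicle library 4 was closest to PSB-KD107 library 2, at 0.64. Deviations from a mean of only 3 libraries depend on each other, so these values cannot decide whether equal numbers are pairs. DESeq2 called 613, 175 and 164 genes without vehicle libraries 1, 2 and 4, and 275, 764 and 672 without PSB-KD107 libraries 1, 2 and 4, and edgeR called 0 each time. With each library left out in turn in edgeR, between 2 and 7 members were higher at an unadjusted p-value under 0.05. The median then lay between 1.02 and 2.25 (the latter without vehicle library 1), and the ends of both ranges came from refits without Elovl7. DESeq2 also fitted Elovl7, and without vehicle library 1 it gave 8 members and a median of 2.27 with Elovl7 counted. In either tool, the log2 fold change of Elovl1 lay between -0.08 and 0.39 and that of Fads3 between -0.35 and -0.0015. No member was lower at an unadjusted p-value under 0.05 except 1, Fads3, in DESeq2 without PSB-KD107 library 2. Elovl7 could be fitted in edgeR in 3 of 6 such refits. For Elovl7, depth limits the vehicle values, as 2 vehicle libraries were at 0 counts.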
